A study of Mus musculus with 21 samples.

Results

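Gene expression was compared between the glomeruli of 3 mice with Epac1 deleted in podocytes and those of 3 control mice, none of them with nephritis. The comparison used 6 of the 21 libraries of the series, chosen by genotype and treatment alone. The knockout animals (NPHS2Cre:Epac1fl/fl, called cKO here) carried floxed Epac1 alleles and a Cre recombinase driven by a podocyte promoter. The controls (Epac1fl/fl, called flox) were littermates with the same floxed alleles and no Cre, so both groups carried the floxed gene, and a Cre control without floxed alleles is not among the samples analysed here. All were females of 3 months that had received PBS in place of the nephrotoxic serum given to the other 15 mice. Glomeruli were cut from 10 µm frozen kidney sections by laser microdissection, 1 library per mouse, and sequenced as tags from the 3′ ends of polyadenylated transcripts (QuantSeq FWD). The series asks what podocyte Epac1 does in glomerulonephritis and names glycolysis in its title. The PBS mice address how the genotypes differ before any injury. All cKO mice and no flox mouse carried Cre, so the deletion and the carriage of Cre cannot be told apart here.

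Podocytes are the epithelial cells that wrap the glomerular capillaries and hold the filtration barrier with interdigitating foot processes built on actin. Cyclic AMP acts in cells through protein kinase A and through the Epac exchange factors, which load Rap GTPases with GTP and so act on integrin adhesion, cell junctions and actin. Epac1 is encoded by Rapgef3 and the related Epac2 by Rapgef4.

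The 3 flox libraries held 17957141 to 19470098 reads and the 3 cKO libraries 19889645 to 20974784. Reads were found for 9777, 10299 and 10973 genes in flox and for 11025, 12350 and 12509 genes in cKO, with no overlap. After thinning each PBS library to 17957136 reads, in a single random draw, the numbers were 9733, 10292 and 10973 against 10974, 12305 and 12461. Flox replicate 3 (10973) and cKO replicate 1 (10974) were then all but equal, so the lack of overlap did not clearly hold at equal depth. The ribosomal RNA gene CT010467.1 took 17.3% to 25.4% of the reads of a library. Haemoglobin genes took 1.40% to 1.71% in flox replicate 3 and cKO replicates 1 and 3, and 0.206% to 0.320% in the other 3. The description rests on the 3524 genes with a mean of at least 50 CPM (counts scaled to a common library size, with TMM factors) over the 6 libraries. They held 84.6% of the scaled reads. Of the genes named, Ist1, Ergic2, Lats2, Slc48a1, Krit1, Ramp2, Eng, Tagln, Igfbp7, Cp, Slc5a2, Csf1r, Col18a1, Timp3, Rps28, Gapdh and Gm20721 overlap another coding gene that reaches to within 500 bases of their annotated 3′ end. Their reads are uncertain, since the strand setting of the counting is not given in the sources used here. In a bulk sample of this kind, fewer cells of a type and less RNA per cell cannot be told apart.

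No gene differed between the genotypes at an adjusted p under 0.05 in edgeR's quasi-likelihood test (0 of 13898 genes tested, 0%). Unadjusted p under 0.05 was met by 837 genes (6.02%), 642 higher (4.62%) and 195 lower (1.4%) in cKO. DESeq2 called 935 genes, of which 837 had no read in 1 of the genotypes, and limma voom called 41. Of the 837 genes with an unadjusted edgeR p under 0.05, 643 had a mean under 10 CPM, where 90.6% of genes had at least 1 of the 6 libraries at 0. In that low range all flox libraries were at 0 for 1489 genes and all cKO libraries for 329. That asymmetry ran with the larger number of genes detected in cKO, whose part in it was not tested. Among the 3524 genes at 50 CPM or more, 66 (1.87%) had an unadjusted p under 0.05, 34 higher (0.965%) and 32 lower (0.908%), and DESeq2 called 8 and voom 0. The 8 were Nipal1, Ybx3 and Mgrn1, higher in cKO, and Akap8l, Ppp2r3a, Plac9a, R3hdm4 and Gm20721, lower (Mgrn1, Plac9a and R3hdm4 are named after their values were seen). For 370 genes (10.5%) the 3 cKO and the 3 flox values did not overlap, with 174 higher (4.94%) and 196 lower (5.56%). With 3 libraries a group, such separation also arises in many genes without any effect of genotype. A lack of overlap is therefore not by itself evidence of a difference. The share of 1.87% at an unadjusted p under 0.05 lay below that threshold itself. In all, 45.8% of the 3524 genes had a log2 fold change above 0 (cKO minus flox, the sign used throughout), and the median was −0.06. With median-ratio size factors in place of TMM the share was 40.7%.

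How narrowly a change could be bounded depended on the level of the gene. For 314 of the 3524 genes (8.91%) the 95% interval of the fold change, taken gene by gene, lay within a 2-fold change in either direction. These were 30 of the 39 genes at 1000 CPM or more, 89 of 122 between 500 and 1000, 172 of 518 between 200 and 500, and 23 of 997 between 100 and 200. None of the 1848 genes between 50 and 100 CPM was among them. The median standard error of the log2 fold change fell from 1.02 at 50 to 100 CPM to 0.26 at 1000 CPM or more.

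**Figure D1:**
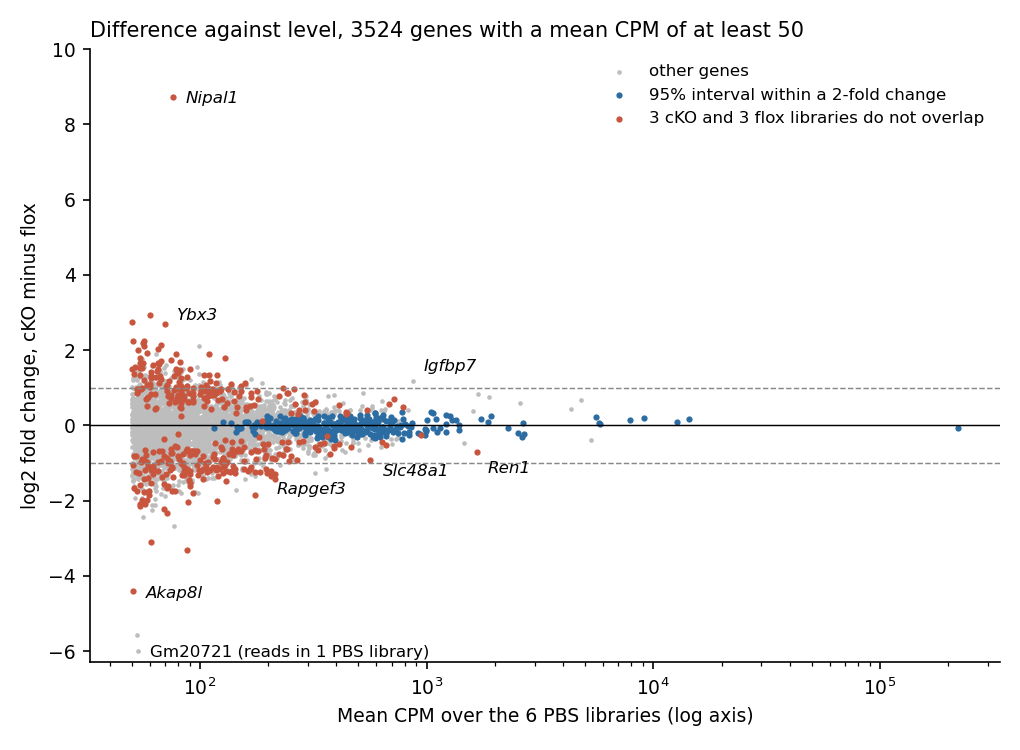
Mean CPM over the 6 PBS libraries (horizontal, log axis) against the log2 fold change of cKO minus flox (vertical) for the 3524 genes with a mean of at least 50 CPM. Genes whose 3 and 3 libraries did not overlap (370) are orange, other genes with a 95% interval within a 2-fold change (dashed lines) are blue, and Gm20721 is drawn at the lower edge. The spread narrows with level and Nipal1 stands alone at 8.74.

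The targeted gene was lower in every cKO library than in any flox library. Rapgef3 (minus strand of chromosome 15 in GRCm38, 97744770 to 97767972; ENSMUSG00000022469.17) stood at 310.2, 201 and 299.8 CPM in flox and 160.5, 137 and 64.4 CPM in cKO. The log2 fold change was −1.16 ± 0.46 (SE), with a 95% interval of −2.11 to −0.22, an unadjusted p = 0.018 and an adjusted p of 0.73 over all genes. Tags come from the 3′ end of the transcript, the deleted part is not given in the sources used here, and other glomerular cells may keep the gene. These values therefore do not check the deletion.

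The closest tested gene on the chromosome was lower without overlap too. Slc48a1, a haem transporter gene (97778520 to 97792692, plus strand, beginning 10547 bases from Rapgef3), stood at 929.7, 694 and 579 CPM in flox and 359, 445 and 366 CPM in cKO. Its log2 fold change was −0.91 ± 0.33 (adjusted p = 0.73; unadjusted p = 0.0099). Its 3′ end overlaps Hdac7 on the other strand, and without a stated strand setting their reads cannot be told apart. Of the 13 tested genes within 500000 bases of Rapgef3, itself included, Rapgef3, Slc48a1 and Amigo2 had no overlap between genotypes, all 3 lower in cKO. Among all 13898 genes tested, 411 were lower and 1010 higher without overlap. Amigo2, with a mean of 42.0 CPM, had a standard error of 2.19 around −2.82.

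Of 25 genes for Epac proteins, other Rap exchange factors, Rap GTPases and their partners, 12 reached 50 CPM, 3 higher and 9 lower in cKO. Their median log2 fold change was −0.30, beside −0.06 over all 3524 genes. Without overlap, 4 of the 12 were lower and 0 higher, beside 5.56% and 4.94% of all genes. Rapgef3 was 1 of the 4, and 0 of the 12 were called.

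Besides Rapgef3, these were the exchange factors Rapgef1 and Rapgef5 and the Rap-binding junction protein gene Krit1. The last 2 are named after their values were seen. Rapgef1, an exchange factor for Rap at adhesion sites, stood at 157, 67.7 and 75.9 CPM in flox and 37.7, 61.9 and 23.0 CPM in cKO, a log2 fold change of −1.29 ± 0.67 (adjusted p = 0.73). Rapgef5 stood at 275, 223 and 149 CPM in flox and 74.3, 111 and 104 CPM in cKO, a log2 fold change of −1.16 ± 0.64 (adjusted p = 0.75). Krit1 stood at 106, 107 and 51.7 CPM in flox and 46.7, 31.0 and 29.9 CPM in cKO, a log2 fold change of −1.30 ± 1.14 (adjusted p = 1). The highest cKO value lay close below the lowest flox value for Rapgef1 and Krit1, and all 3 intervals included 0. The other Epac gene, Rapgef4, overlapped, at 41.1, 48.1 and 100.8 CPM in flox and 87.6, 15.6 and 62.1 CPM in cKO, and differed by −0.20 ± 1.17 (adjusted p = 1). The GTPase genes Rap1b and Rap1a overlapped as well, and the other 6 measured members ranged from −0.54 to 0.46. Rap1b differed by −0.41 ± 0.57 (adjusted p = 1). Rap1a, whose mean was under 50 CPM, differed by −0.18 ± 1.10 (adjusted p = 1). Rapgef4 and Rap1a changed sign when flox replicate 3 was left out, to 0.29 and 0.58.

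**Figure D2:**
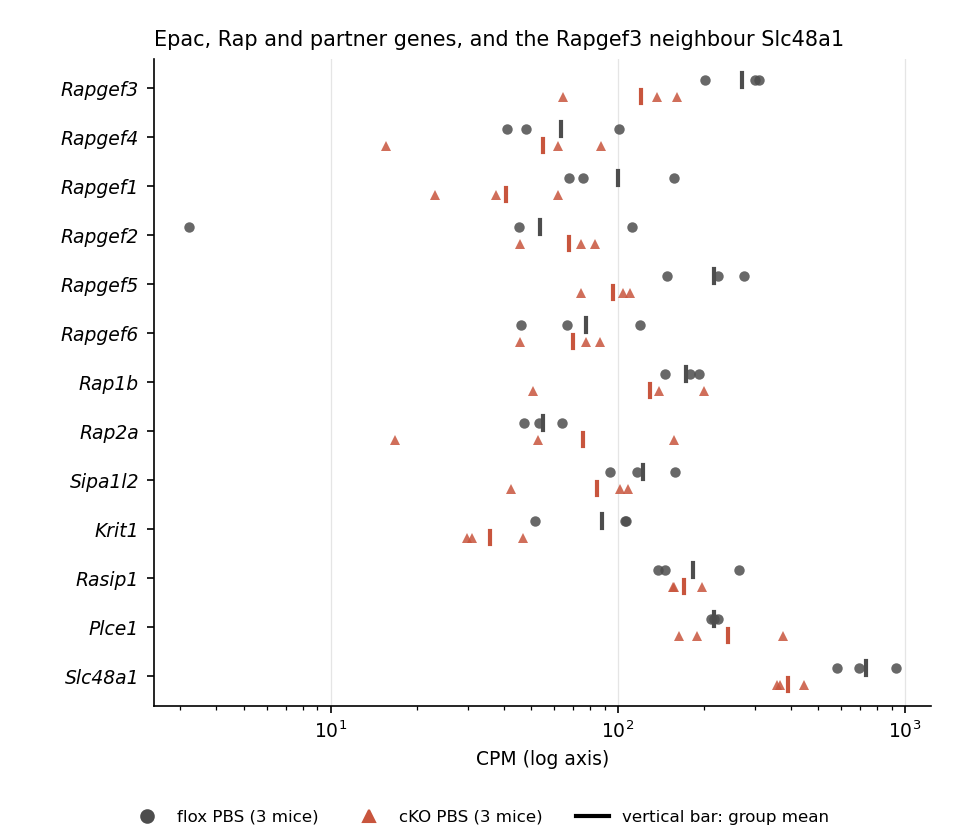
CPM (horizontal, log axis) of the 12 genes of the Epac and Rap list with a mean of at least 50 CPM and of Slc48a1, 1 symbol per PBS library, with circles for flox and triangles for cKO (3 mice each) and a bar at each group mean. Rapgef3, Rapgef1, Rapgef5, Krit1 and Slc48a1 show all triangles left of all circles, and the other genes overlap.

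The other branch of cyclic AMP signalling was covered by a list of its own. Of 39 genes for adenylyl cyclases, phosphodiesterases, protein kinase A subunits and their anchors, 13 reached 50 CPM, 7 higher and 6 lower, with a median of 0.05. Overlap was lacking for 0 of the 13, beside 10.5% of all 3524 genes. The members with the smallest p were Pde3a, a phosphodiesterase gene, and Prkacb, which encodes a catalytic subunit of protein kinase A. Pde3a stood at 20.5, 89.2 and 6.68 CPM in flox and 118, 129 and 57.9 CPM in cKO (1.39 ± 0.90, adjusted p = 0.89). Prkacb stood at 256, 214 and 73.5 CPM in flox and 109, 88.7 and 114 CPM in cKO (−0.80 ± 0.55, adjusted p = 0.94). Both overlapped, with flox replicate 2 high for Pde3a and flox replicate 3 low for Prkacb.

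Among all genes at 50 CPM or more, Nipal1, of the NIPA magnesium transporter family, differed most by p (ENSMUSG00000067219.9; chromosome 5, 72647795 to 72671078, plus strand). It stood at 0.211, 0.497 and 0.334 CPM in flox and 221, 145 and 88.02 CPM in cKO, so that the gene was near 0 in all 3 flox mice and read in all 3 cKO mice. The log2 fold change was 8.74 ± 1.76, with a 95% interval of 5.15 to 12.32 and an adjusted p of 0.32. The call depended on the fit. The adjusted p was 0.0132 when only the 6 PBS libraries were fitted, 0.00154 without a filter on low counts, and 0.0097 without cKO day 4 replicate 3, a library of another group. Over all alternatives and left-out libraries it ran from 3.18e-09 to 1. Prm1, a sperm protamine gene with a mean under 50 CPM, had reads in cKO alone. It stood at 0, 0 and 0 CPM in flox and 64.8, 5.13 and 1.43 CPM in cKO, with most of its reads in cKO replicate 1, and was not called by edgeR (adjusted p = 0.73). DESeq2 called it, with an adjusted p of 8.03e-05. For Nipal1 and Prm1, as for every gene here, the deletion and the carriage of Cre cannot be told apart.

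Of the 174 genes higher in cKO without overlap, the 10 with the smallest p included regulators of transcription, trafficking and the cytoskeleton. None of them was called by edgeR, and DESeq2 called Nipal1 (adjusted p = 3.18e-09) and Ybx3 (adjusted p = 0.0151). Ybx3, which encodes a cold shock domain protein that binds nucleic acids, stood at 15.7, 36.03 and 4.56 CPM in flox and 217, 103 and 43.0 CPM in cKO (2.69 ± 0.82, adjusted p = 0.73). Ist1, a gene of the ESCRT membrane-remodelling machinery, stood at 96.7, 62.0 and 14.96 CPM in flox and 271, 167 and 159.9 CPM in cKO (1.78 ± 0.58). Lats2, a kinase gene of the Hippo pathway, stood at 63.5, 22.0 and 54.1 CPM in flox and 202, 226 and 88.3 CPM in cKO (1.89 ± 0.71). These 3 differed by more than 1 on the log2 scale, with standard errors of 0.58 to 0.82.

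The kinesin motor gene Kif5b, which had the smallest standard error of the 10, stood at 411, 558 and 663 CPM in flox and 1092, 832 and 737 CPM in cKO (0.70 ± 0.28). Cdc42, which encodes a small GTPase that directs actin assembly and is needed in podocytes for normal foot processes, stood at 183, 125 and 208 CPM in flox and 366, 269 and 301 CPM in cKO (0.86 ± 0.35). Gstp1, a glutathione transferase gene with a close copy, Gstp2, stood at 201, 88.5 and 237 CPM in flox and 413, 368 and 247 CPM in cKO (0.97 ± 0.40). The lowest cKO value of Gstp1 lay just above the highest flox value. Of the other 3, Ergic2, of the compartment between endoplasmic reticulum and Golgi, differed by 2.26 ± 0.84. Epc2, of a histone acetyltransferase complex, differed by 1.91 ± 0.77. Ndufs6, a subunit gene of the first respiratory complex, differed by 1.13 ± 0.45. The adjusted p was 0.73 for each of the 9 besides Nipal1.

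Lower in cKO without overlap were 196 genes. Akap8l, which encodes a nuclear A-kinase anchor-like protein, had the largest gap of the 10 with the smallest p, at 63.2, 113 and 115 CPM in flox and 0.0522, 2.59 and 11.0 CPM in cKO (−4.41 ± 1.32, adjusted p = 0.73). Ppp2r3a, a regulatory subunit gene of a serine and threonine phosphatase, stood at 198.7, 88.6 and 287 CPM in flox and 20.1, 72.1 and 49.2 CPM in cKO (−2.02 ± 0.69). Pcdh1, a protocadherin gene, stood at 164, 54.9 and 123 CPM in flox and 32.4, 11.2 and 29.2 CPM in cKO (−2.23 ± 0.89). DESeq2 called Akap8l (adjusted p = 0.000767) and Ppp2r3a (adjusted p = 0.0288), which edgeR did not. The gap between the highest cKO and the lowest flox value was wide for Akap8l and narrower for Ppp2r3a and Pcdh1.

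Anapc5, of the anaphase-promoting complex, had the tightest flox values of the 10, at 284, 295 and 256 CPM in flox and 158, 78.0 and 111 CPM in cKO (−1.27 ± 0.48). Rcan2, a regulator of calcineurin, stood at 372, 330.5 and 178 CPM in flox and 137, 88.7 and 123 CPM in cKO (−1.33 ± 0.56). Tecr, an enzyme gene of very-long-chain fatty acid synthesis, stood at 154.5, 513 and 189 CPM in flox and 133, 107.5 and 132 CPM in cKO (−1.20 ± 0.51), with flox replicate 2 far above the other 5 libraries. Without that library Tecr differed by −0.47, and it was the 1 gene of the 20 whose value was smaller by over 1.5 times without some 1 PBS library. Edf1, a transcriptional coactivator gene, differed by −1.23 ± 0.52 and Ap3b1, an adaptor gene for vesicle sorting, by −1.75 ± 0.75. The adjusted p was 0.73 for each of the 10, Slc48a1 and Rapgef3 included.

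**Figure D3:**
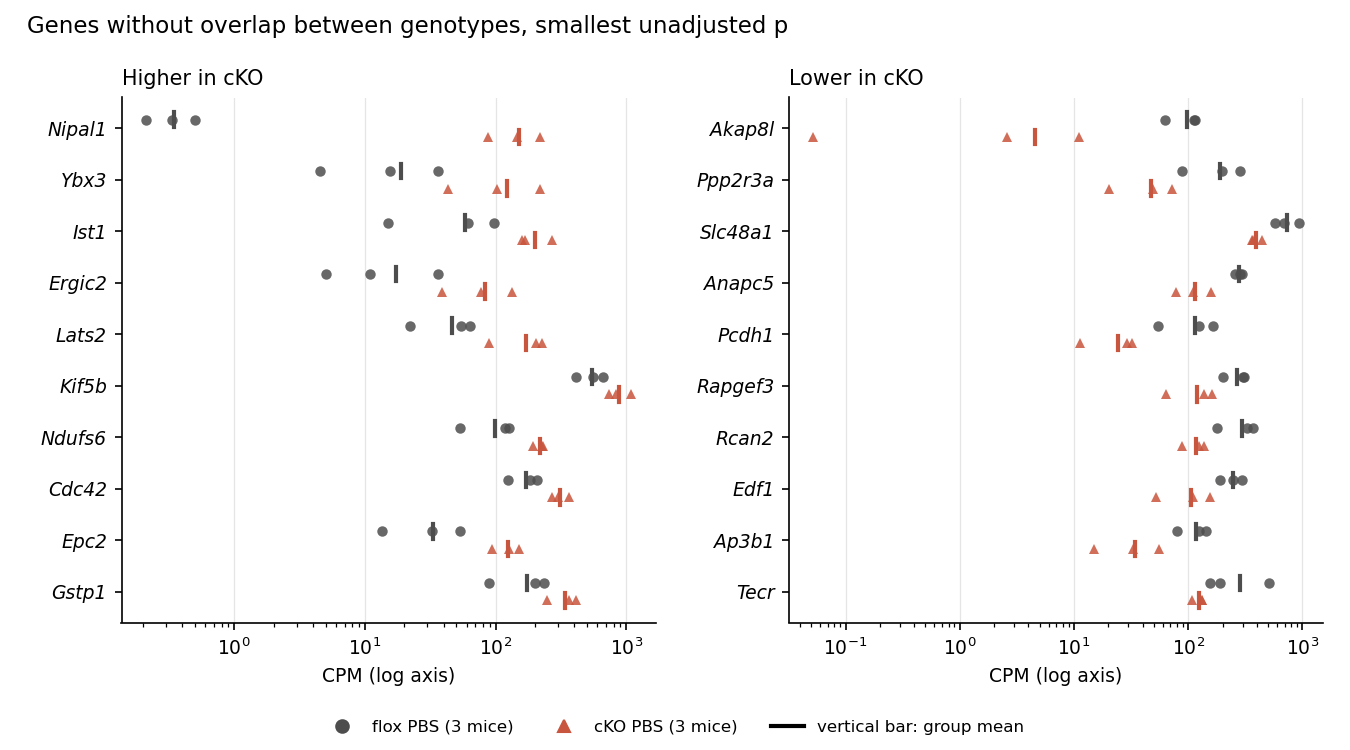
CPM (horizontal, log axis) in each PBS library for the 10 higher and the 10 lower genes with the smallest p among those without overlap, with circles for flox and triangles for cKO (3 mice each) and a bar at each group mean. The gap between genotypes is wide for Nipal1 and Akap8l and narrow for Gstp1 and Tecr, and edgeR called 0 of the 20 genes and DESeq2 4 (Nipal1, Ybx3, Akap8l and Ppp2r3a).

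Podocyte genes lay on both sides of 0. The dissected tissue carried the defining markers of glomerular cells, with the 45 podocyte genes summing to 14324 to 17652 CPM in flox and 16110 to 18227 CPM in cKO. Of 39 podocyte genes at 50 CPM or more, 19 were higher and 20 lower, the median was −0.02, and for 15 the 95% interval lay within a 2-fold change. Nphs1, the nephrin gene of the slit diaphragm, stood at 587, 474 and 579 CPM in flox and 489, 472 and 452 CPM in cKO (−0.22 ± 0.37, interval −0.98 to 0.54). Synpo, the actin-associated synaptopodin gene, stood at 1439, 1343 and 2099 CPM in flox and 2148, 1609.6 and 1782 CPM in cKO (0.18 ± 0.29, interval −0.40 to 0.76). Both intervals lay within a 2-fold change.

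Podxl, which encodes the surface sialomucin podocalyxin, differed by 0.40 ± 0.42 (interval −0.48 to 1.27). Wt1, a transcription factor gene of podocytes, differed by 0.18 ± 0.62 (interval −1.08 to 1.45), and its sign turned to −0.37 without cKO replicate 1. The adjusted p was 1 for all of Nphs1, Synpo, Podxl and Wt1. The 2 podocyte genes with the smallest p were Col4a3, a collagen gene of the glomerular basement membrane, and Robo2, a guidance receptor gene of podocytes. Col4a3 stood at 611, 627 and 378 CPM in flox and 249, 435 and 314 CPM in cKO (−0.69 ± 0.42, adjusted p = 0.83), with overlap. Robo2 stood at 84.1, 116 and 113 CPM in flox and 232, 173 and 187 CPM in cKO (0.92 ± 0.63, adjusted p = 0.95), without overlap.

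Endothelial and mesangial genes had medians near 0 too. Of 23 endothelial genes, 12 were higher and 11 lower with a median of 0.01, and 7 had an interval within a 2-fold change. Eng, the endoglin gene, stood at 198.7, 252 and 239 CPM in flox and 489.9, 311 and 254 CPM in cKO (0.61 ± 0.37, adjusted p = 0.81). Ramp2, a receptor partner for adrenomedullin, stood at 135, 208 and 229 CPM in flox and 36.3, 96.4 and 109.8 CPM in cKO (−1.24 ± 0.73, adjusted p = 0.80). Both genes lacked overlap, in opposite directions, and 5 of 23 endothelial genes did so in all (3 higher, 2 lower), beside 10.5% of the 3524 genes. Without cKO replicate 1 Eng differed by 0.30.

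Of 20 mesangial and juxtaglomerular genes, 10 were higher and 10 lower with a median of 0.02. The 3 without overlap were all lower in cKO, beside 5.56% of all genes lower and 4.94% higher. Tagln, a smooth muscle actin-binding protein gene, stood at 122, 192 and 114 CPM in flox and 3.76, 69.2 and 31.0 CPM in cKO (−2.04 ± 0.88, adjusted p = 0.73). Itga8, an integrin chain gene of mesangial cells, stood at 207, 184 and 131 CPM in flox and 89.5, 95.2 and 66.6 CPM in cKO (−1.05 ± 0.57, adjusted p = 0.73). Ren1, the renin gene of juxtaglomerular cells, named after its values were seen, stood at 2211, 1734 and 2256 CPM in flox and 1027, 1194 and 1552 CPM in cKO (−0.72 ± 0.57, adjusted p = 1). Other contractile and mesangial genes of the list had values on both sides of 0. Igfbp7, a secreted binding protein gene, stood at 519.7, 325 and 763 CPM in flox and 740.0, 1628 and 1247 CPM in cKO (1.17 ± 0.52, adjusted p = 0.73), with cKO replicate 1 inside the flox range.

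Parietal epithelium was represented by 5 genes at 50 CPM or more, 1 higher and 4 lower with a median of −0.67. Cp, the ceruloplasmin gene, differed by −0.79 ± 0.46 and Vcam1, an adhesion molecule gene, by −1.28 ± 0.88, both with overlap. Without flox replicate 1 Vcam1 differed by −0.35, and without cKO replicate 1 Cp differed by −0.45. The 16 genes of the list summed to 709 to 1059 CPM in flox and 676 to 919 CPM in cKO.

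Tubule RNA, which can enter a dissected glomerulus from its surroundings, was present in all 6 libraries. The 30 proximal tubule genes summed to 3491 to 5692 CPM in flox and 3033 to 6865 CPM in cKO, with 2 of them at 0 throughout. Of 18 at 50 CPM or more, 12 were higher and 6 lower, with a median of 0.14. Slc27a2, a fatty acid transport gene, stood at 216, 155.4 and 80.9 CPM in flox and 48.3, 52.2 and 97.3 CPM in cKO (−1.19 ± 0.66). Slc5a2, the glucose cotransporter gene, was at 0 in flox replicate 1 and differed by 2.00 ± 1.19, without overlap. Of 10 distal nephron and collecting duct genes 3 were higher and 7 lower, with a median of −0.21. Wfdc2 differed by −0.81 ± 0.58 and the proton pump subunit gene Atp6v1g3 by −1.79 ± 1.32.

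Red cell genes were high in 3 libraries, from both genotypes. The 9 red cell genes in the table summed to 14463 CPM in flox replicate 3 and to 18337 and 13257 CPM in cKO replicates 1 and 3, against 2057 to 3264 CPM in the other 3 libraries. All 4 measured at 50 CPM or more were higher in cKO on average, among them Hba-a1 at 0.83 ± 1.06 and Hbb-bs at 0.77 ± 0.98, each with an adjusted p of 1. Leukocyte genes were low, with sums of 448 to 829 CPM in flox and 472 to 539 CPM in cKO over 30 genes, and 2 of the 30 reached 50 CPM. Cd74, of antigen presentation, differed by −0.80 ± 0.61 and Csf1r, a macrophage receptor gene, by −0.03 ± 0.82. Without flox replicate 1 Cd74 differed by −0.08 and Csf1r by 0.60.

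Few glycolysis genes reached the level described, and their values lay on both sides of 0. Of 35 genes for glycolysis, lactate and glucose uptake, 30 were tested and 11 reached 50 CPM, 6 higher and 5 lower, with a median of 0.04 and a range of −0.34 to 0.51. None of the 11 lacked overlap, beside 10.5% of all 3524 genes. The interval reached beyond a 2-fold change for 10 of the 11. Pkm, the pyruvate kinase gene, stood at 248, 202 and 304 CPM in flox and 366, 189.8 and 273 CPM in cKO (0.13 ± 0.43, interval −0.74 to 1.01). Ldha, for lactate dehydrogenase, stood at 58.6, 107 and 119.9 CPM in flox and 75.3, 102 and 77.9 CPM in cKO (−0.17 ± 0.60, interval −1.39 to 1.05).

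Gapdh, of the same pathway, stood at 149.5, 50.4 and 27.5 CPM in flox and 60.3, 65.1 and 95.8 CPM in cKO (−0.04 ± 0.66, interval −1.38 to 1.30), with flox replicate 1 above all other libraries. Pgk1 differed by 0.51 ± 0.63 and Pgam1 by −0.34 ± 0.45, the largest values up and down, both with overlap. The adjusted p was 1 for all 5. The summed level of the 35 genes was 1718 to 2842 CPM in flox and 1852 to 2464 CPM in cKO.

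Mitochondrially encoded genes were the better-measured part of energy metabolism. Of 12 mitochondrially encoded genes 10 were higher and 2 lower, with a median of 0.11, and for 8 the interval lay within a 2-fold change. For both genes with the smallest p, cKO replicates 2 and 3 lay above the flox range and cKO replicate 1 within it. mt-Co2, a cytochrome oxidase subunit, stood at 1588, 2129 and 2469 CPM in flox and 2210.1, 3511 and 3578 CPM in cKO (0.59 ± 0.39). mt-Nd3, of the first respiratory complex, stood at 416, 531 and 533 CPM in flox and 429, 943 and 964 CPM in cKO (0.66 ± 0.45).

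Of 66 nuclear-encoded respiratory chain genes, 37 were higher and 29 lower with a median of 0.06, and for 16 the interval lay within a 2-fold change. Without overlap, 2 of the 66 were higher, beside 4.94% of all genes. Ndufs6 was 1 of these, and Ndufa10, another subunit of the first complex, differed by 0.88 ± 0.52 with overlap. Of 22 citric acid cycle and fatty acid oxidation genes, 10 were higher and 12 lower (median −0.09), and for 0 the interval lay within a 2-fold change. Pdhb, of pyruvate dehydrogenase, differed by 1.27 ± 0.78 and Idh3g, of isocitrate dehydrogenase, by 1.16 ± 0.68.

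Of 12 interstitial and fibrillar matrix genes 2 were higher and 10 lower, with a median of −0.21. The summed level of the 32 genes of this list in the table was 8361 to 10832 CPM in flox and 7136 to 8322 CPM in cKO. This was the 1 list of 27 whose sum did not overlap between genotypes, beside 10.5% of the 3524 single genes. The margin was narrow, with the highest cKO sum close below the lowest flox sum. The largest share of that sum came from Sparc, Timp3 and Timp2, which differed by −0.23, −0.19 and −0.17, named after their values were seen. Col1a1, the collagen type I gene, stood at 850.3, 364 and 279.6 CPM in flox and 107, 219.8 and 349 CPM in cKO (−1.15 ± 0.49, adjusted p = 0.73), with flox replicate 1 far above the rest and overlap between genotypes. Bgn, for biglycan, differed by −0.37 ± 0.31. Without flox replicate 1 Col1a1 differed by −0.53 and Bgn by −0.05. Of 12 basement membrane genes 4 were higher and 8 lower (median −0.17). Without overlap, 1 of the 12 was higher and 0 lower, beside 4.94% and 5.56% of all genes. This was Col18a1, at 221, 132 and 140.2 CPM in flox and 279, 331 and 234 CPM in cKO (0.77 ± 0.44, adjusted p = 0.77).

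Actin and adhesion are among the processes on which Rap signalling is known to act. Of 35 actin cytoskeleton genes, 17 were higher and 18 lower with a median of −0.02, and for 14 the interval lay within a 2-fold change. Unadjusted p under 0.05 was met by 5 of the 35, beside 1.87% of all 3524. Those higher were Cdc42, Tpm3 and Vasp, and those lower were Tpm2 and Rock2 (the last 3 named after their values were seen). Tpm3, a tropomyosin gene, stood at 105, 70.5 and 121 CPM in flox and 187, 238 and 187 CPM in cKO (1.04 ± 0.43, adjusted p = 0.73), without overlap. Of 19 integrin and adhesion linker genes, 9 were higher and 10 lower with a median of −0.02. Without overlap, 1 of the 19 was lower (Itga8) and 2 were higher, beside 5.56% and 4.94% of all genes. The 2 were Fermt2 and Tns2 (named after their values were seen). Itgb5 differed by 0.85 ± 0.46.

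Of 74 cytosolic ribosomal protein genes 39 were higher and 35 lower with a median of 0.05, and 35 had an interval within a 2-fold change. Without overlap, 5 of the 74 were higher and 0 lower, beside 4.94% and 5.56% of all genes. Rpl24 was 1 of the 5, at 29.2, 46.4 and 70.3 CPM in flox and 91.2, 142 and 116 CPM in cKO (1.26 ± 0.62, adjusted p = 0.73). Rps28 differed by 0.79 ± 0.45. Of 18 glutathione and Nrf2 target genes 6 were higher and 12 lower (median −0.14), with Nfe2l2, the Nrf2 gene, at −0.75 ± 0.51. Of 12 circadian and glucocorticoid target genes 3 were higher and 9 lower (median −0.52). Among them Tsc22d3, a glucocorticoid-induced gene, differed by −1.26 ± 0.82 and Sgk1, a kinase gene, by −0.67 ± 0.46, the former with cKO values between 48.7 and 55.9 CPM. Sgk1 turned to 0.21 without flox replicate 1, and Tsc22d3 differed by −0.43 without flox replicate 2.

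Of 14 immediate early and heat shock genes 5 were higher and 9 lower (median −0.17), with Klf6 at −0.85 ± 0.49 and Jun at −0.62 ± 0.52. Without flox replicate 2 they differed by −0.17 and −0.16. Of 15 endoplasmic reticulum chaperone genes 7 were higher and 8 lower (median −0.04), with Calr, for calreticulin, at 0.61 ± 0.34 and cKO replicate 1 far above the other libraries. Without that library Calr differed by 0.03. Sel1l, of the degradation pathway, differed by 0.71 ± 0.47. Of 10 genes of the TNF, interferon and chemokine response 3 were higher and 7 lower (median −0.19). Nfkbia, an inhibitor of NF-kappa B, stood at 619, 387 and 209.8 CPM in flox and 268, 201 and 235 CPM in cKO (−0.79 ± 0.38), and Rsad2, an interferon-induced gene, at 24.95, 91.8 and 88.2 CPM in flox and 243, 95.5 and 92.9 CPM in cKO (1.07 ± 0.57). Without cKO replicate 1 Rsad2 differed by 0.46, and without flox replicate 1 Nfkbia differed by −0.37.

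Of 11 complement and MHC genes 5 were higher and 6 lower, with Cd59a at 0.73 ± 0.46 and H2-D1 at −0.52 ± 0.38. Of 16 VEGF, angiopoietin and semaphorin genes 10 were higher and 6 lower (median 0.18), with Nrp1 at 0.44 ± 0.36 and Kdr, a VEGF receptor gene, at 0.29 ± 0.25 (interval −0.23 to 0.81). Of the cell cycle genes 6 reached 50 CPM, 3 higher and 3 lower. Tuba1b, a tubulin gene, was higher without overlap, at 356, 298 and 357 CPM in flox and 498, 518 and 448 CPM in cKO (0.53 ± 0.26, adjusted p = 0.73). Stmn1, of microtubule turnover, differed by −1.36 ± 0.80. Without flox replicate 3 it differed by −0.46.

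Of the 91 named genes, 45 had a log2 fold change smaller by over 1.5 times, or of the other sign, without some 1 PBS library. Across all 27 lists, 492 different genes reached 50 CPM. Unadjusted p under 0.05 was met by 13 of them (2.64%), beside 1.87% of all 3524. The values did not overlap for 40 list genes, 23 higher (4.67%) and 17 lower (3.46%), beside 4.94% and 5.56% of all genes.

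**Figure D4:**
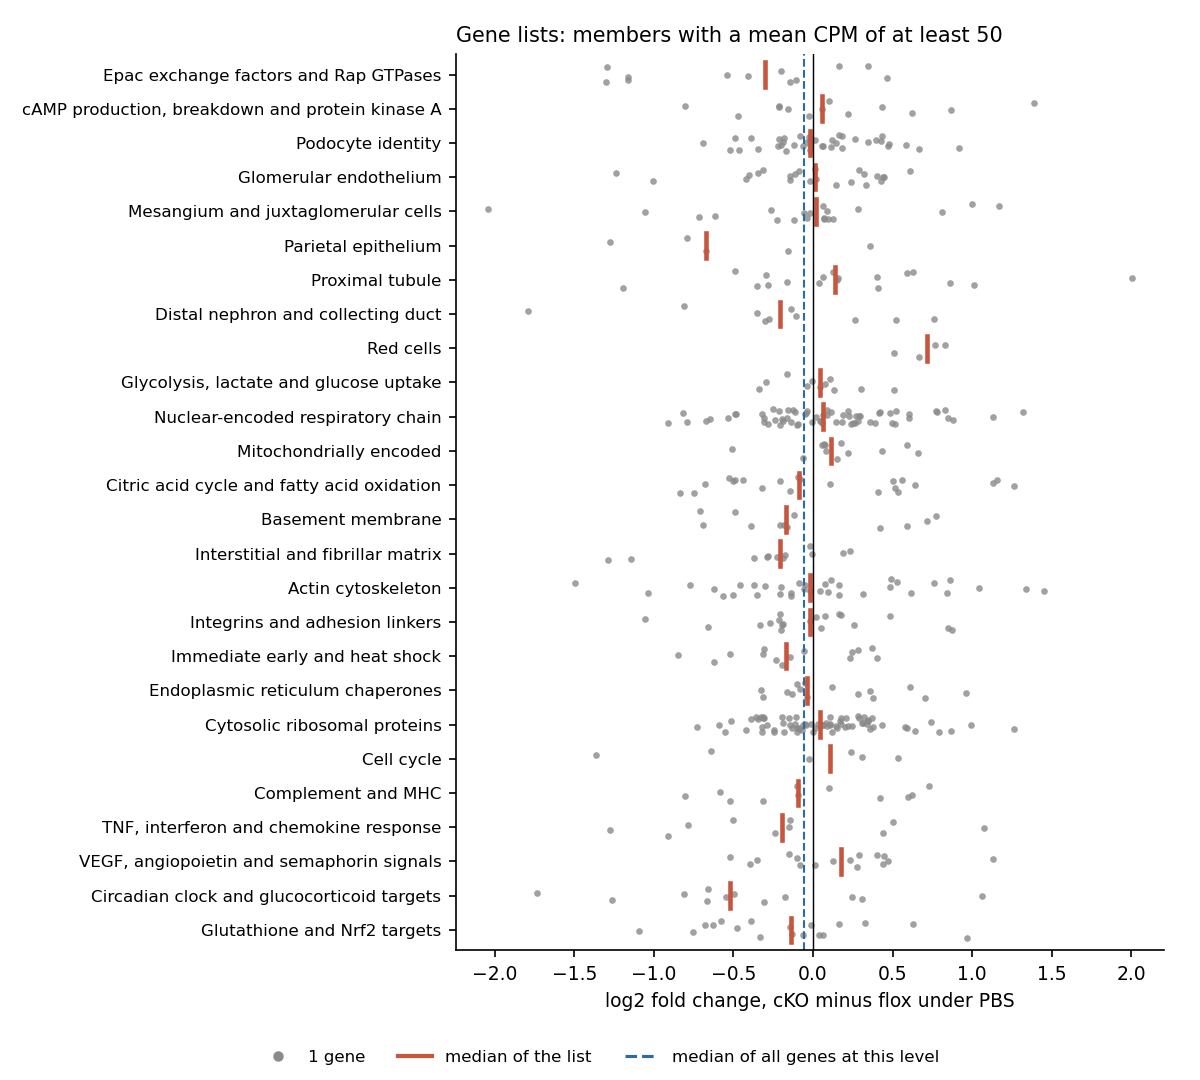
Log2 fold change of cKO minus flox under PBS for each list member with a mean of at least 50 CPM (1 point per gene), with the median of the list in orange and the median of all 3524 genes as a dashed line. The leukocyte list, with 2 genes at this level, is not drawn. List medians lie between −0.67 (parietal epithelium, 5 genes) and 0.72 (red cells, 4 genes), and the podocyte, endothelial and mesangial medians lie within 0.02 of 0.

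The same genotype difference was measured in separate mice on day 4 and day 11 after nephrotoxic serum. No gene had a genotype difference that differed between PBS and day 4 or between PBS and day 11 at an adjusted p under 0.05 in edgeR (0 of 13898 genes in each, 0%). Unadjusted p under 0.05 was met by 1076 genes (7.74%) for day 4 and 964 (6.94%) for day 11. DESeq2 called 1113 and 951 genes and voom 10 and 4. Among the 3524 genes, an unadjusted p under 0.05 for that difference was met by 91 (2.58%) at day 4 and by 64 (1.82%) at day 11. The sign under PBS recurred for 50.5% of the 3524 genes at day 4 and 50.1% at day 11. Of the 66 genes with an unadjusted p under 0.05 under PBS, 30 had the same sign at day 4 and 37 at day 11.

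Of the 20 genes named without overlap, 10 had the same sign at day 4 and 14 at day 11. Nipal1 was higher in cKO at both stages, by 5.12 ± 1.47 at day 4 and 7.50 ± 1.44 at day 11. Rapgef3 had negative values at both, −0.67 ± 0.43 and −0.21 ± 0.40, the latter smaller than its standard error. Akap8l was not low in cKO at either stage, at 0.68 ± 1.09 and 0.15 ± 0.99. For Akap8l the difference between the genotype effects at day 4 and under PBS had an unadjusted p of 0.0049 and an adjusted p of 0.52. The PBS libraries by which the 20 genes were picked also enter this difference, so the choice itself favours a small p. Unadjusted p under 0.05 was met by 10 of the 20 for day 4 and 6 for day 11, beside 2.58% and 1.82% of the 3524.

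**Figure D5:**
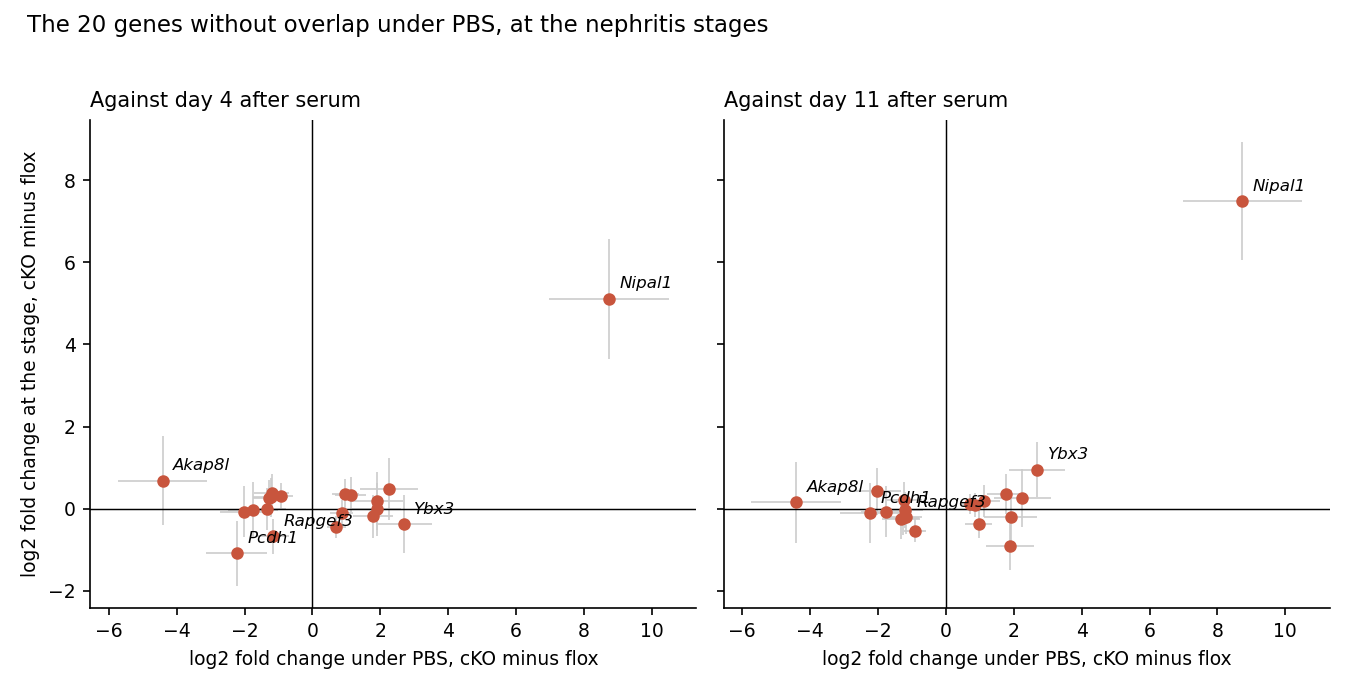
Log2 fold change of cKO minus flox under PBS (horizontal) against that on day 4 (left) and day 11 (right) after serum, for the 20 genes named without overlap under PBS. Bars are standard errors, and no library is shared between axes. Nipal1 lies far from 0 on both axes and the other 19 lie within 1.1 of 0 on the vertical axis.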

How the data were processed

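The authors deposited 1 table of estimated counts of reads per gene for each library, not normalized, per the file headers. Per the submitters' processing notes, the tools were Picard, DRAGEN, fastp and FastQC, on mm10. Not given in the sources used here are versions, the annotation, strand and the handling of duplicates. Within 0.005, 95.2% of the nonzero values were whole numbers. Genes were matched by identifier to GENCODE M21 (35513 of 35598), which gave names and GRCm38 positions. The libraries are of separate mice per the labels, and 0 pairs held identical values.

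Rounded counts entered edgeR 4.0.16 (R 4.3.3), with genes filtered by filterByExpr (minimum count 10), TMM scaling and a robust quasi-likelihood F test. A single model of 6 group means held the 21 libraries (15 residual degrees of freedom), and Benjamini-Hochberg adjustment ran over 13898 genes, each called at an adjusted p under 0.05. The common biological coefficient of variation was 1.66. All p-values in the text are from this fit unless another tool is named. A standard error is |log2 fold change| over the root of F. Intervals are 95% and are not adjusted for the number of genes. CPM used TMM-scaled library sizes, with TMM factors from 0.937 to 1.07 under PBS. The procedure was also run on simulated counts with known changes, and the share of these that it called is not given here. Alternatives used DESeq2 1.42.0 and limma 3.58.1. Python 3.11.15 and matplotlib 3.10.9 made the figures.

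The named genes were, among genes at 50 CPM or more, every called gene, the 10 higher and 10 lower genes without overlap and with the smallest p (predicted genes passed over), and from each list the 2 members of smallest p. Rapgef3, Rapgef4, Rap1a, Rap1b, Nphs1, Podxl, Synpo, Wt1, Nipal1, Prm1, Gapdh, Ldha and Pkm were always named. The comparison, the 27 lists and this rule were chosen with earlier results of these data known. Lists are described by counts and medians, with no set test. A podocyte gene was left out of the lists and is not reported here.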

Additional observations from a re-analysis of the deposited data

How the results depend on the processing

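The number of genes called under PBS was 0 with median-ratio size factors, with ribosomal, mitochondrial and haemoglobin genes removed, with a proximal tubule covariate, with a covariate for genes detected (chosen after seeing the data) and when the genes at 50 CPM or more were refitted alone. The replicate block also gave 0. Replicate numbers were not treated as pairs in the main fit. Same-numbered PBS libraries correlated in their deviations by 0.010, 0.042 and −0.026. With 3 libraries a group and a wide spread, such values cannot exclude a pairing. The unchanged count under the block cannot either, since the main fit called 0 genes. Only Nipal1 was called without a low-count filter, with the compared groups alone, and without cKO day 4 and day 11 replicates 3 together (1 gene each, also among genes at 50 CPM or more). DESeq2 called 935 genes under PBS, 8 of them at 50 CPM or more, and 1113 and 951 genes for the differences from PBS at day 4 and day 11. Voom called 41, 10 and 4. With each library left out in turn the counts were 0 to 2 under PBS (2 without flox PBS replicate 3, Tbc1d17 and Ciapin1), 0 to 1 among genes at 50 CPM or more, and 0 to 4 at day 4 (4 without cKO day 4 replicate 1). At a minimum of 200 CPM, 21 genes had an unadjusted p under 0.05.

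Over 91 named genes, 9 of 992 log2 fold changes under alternatives other than leaving out a library changed sign, each for a gene near 0. Voom gave 0.44 for Rap1a, −0.21 for Wt1, 0.53 for Gapdh and −0.0087 for Pkm. The covariate for genes detected gave 0.44 for Csf1r, 0.017 for Rapgef4 and 0.097 for Gapdh. The proximal tubule covariate gave 0.52 for Csf1r and the replicate block 0.096 for Gapdh. A kept sign did not mean a stable size. In some alternative mt-Nd3 fell from 0.66 to 0.072, mt-Co2 from 0.59 to 0.25 and Igfbp7 from 1.17 to 0.51. Vcam1 went from −1.28 to −0.44 and Col4a3 from −0.69 to −0.25. Other values grew, such as that of Slc5a2, from 2.00 to 4.37. Of the 21 libraries left out in turn, 15 were from nephritis mice and do not enter the PBS group means. Leaving out any of those could hardly change a sign, so most of the 1911 values so obtained could not test it. With a library left out, 14 of the 1911 changed sign, each time without a PBS library. The ranges were −0.39 to 0.60 for Csf1r, −0.087 to 0.73 for Pgk1, −1.03 to 0.21 for Sgk1, −0.70 to 0.29 for Rapgef4, −0.75 to 0.58 for Rap1a, −0.37 to 0.50 for Wt1, −0.44 to 0.90 for Gapdh, −0.44 to 0.028 for Ldha and −0.12 to 0.32 for Pkm. Gm20721 had reads in flox PBS replicate 1 alone of the 6, so its value, −13.89, ran from −14.48 to 0 with a library left out. Rapgef3 ran from −1.42 to −0.88. The cause of these changes was not tested. The depth and the spread limit the report to the better-measured genes, and 3 mice a group leave a doubling within the interval for most genes under 200 CPM.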
